A study of Homo sapiens with 6 samples.

Results

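The aldo-keto reductases are cytosolic enzymes that use NADPH to reduce carbonyl groups, and 10 human genes of the family were taken: AKR1A1, AKR1B1, AKR1B10, AKR1B15, AKR1C1, AKR1C2, AKR1C3, AKR1C4, AKR7A2 and AKR7A3. Their probe sets were those to which the platform annotation gives exactly 1 of these symbols, 17 of the 49293 probe sets that are no array controls. A further 3 probe sets are annotated to 2 members at a time and are described apart. The 17 probe sets covered 8 of the 10 genes, and AKR1A1 and AKR1B1 were not analysed here. The samples were total RNA of A549 cells, an established human lung adenocarcinoma line, on 1-colour arrays. The cells had received a lentivirus with a negative control hairpin (shControl, 3 arrays) or with a hairpin against TIGD1 (shTIGD1, 3 arrays), with 1 hairpin sequence per group, and all grew in the same serum-containing medium. The labels do not say whether the cells were a clone or a pool, nor that the arrays of a group came from separate cultures, so p-values measure only the spread between these arrays, which may be technical.

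Enzymes of this family turn aldehydes and ketones into alcohols. The AKR1C enzymes act on steroid hormones, prostaglandins and bile acids, the AKR1B enzymes on glucose, retinal and lipid aldehydes, and the AKR7A enzymes on dialdehydes such as that of aflatoxin. AKR1B10 and the AKR1C genes are known targets of NRF2, the transcription factor of the antioxidant response, which the adaptor KEAP1 marks for degradation, and A549 cells are known to carry a mutant KEAP1 and to express these genes strongly. The AKR1C genes lie side by side on chromosome 10 as close copies of each other, which bears on the AKR1C probe sets below.

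TIGD1 itself read 6.96, 6.93 and 6.85 with the control hairpin and 6.88, 6.84 and 6.86 with the TIGD1 hairpin (log2 change -0.06, SE 0.04, limma adjusted p = 0.389). Its transcript was thus not called lower, and every direction below is that of arrays labelled shTIGD1 against arrays labelled shControl. All values are log2 signals, so that a change of 1 is a doubling, and array medians lay between 6.27 and 6.28. Calls are at an adjusted p of 0.05, adjusted over all probe sets for the member probe sets. For TIGD1, the markers, the gene lists and counts of genes, the adjustment was over all 18244 genes. When arrays were levelled on hybridization or poly-A control probes in place of the deposited scale, the median change of all probe sets moved by 0.21 or 0.33, so that changes below are relative to the bulk of the probe sets. Of 6 markers of simple epithelium, 4 keratins did not pass and EPCAM and CDH1 rose. All 4 steroidogenic cell markers and 4 of 5 liver markers had means under 5, near background. So did 2 of 6 markers of the alveolar type II cell, from which A549 is often said to derive.

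The closeness of the AKR1C gene copies can be read in the sequence before their starts. These bases lie before the annotated transcripts, so they do not show whether probes tell the copies apart. Transcript and probe sequences were not compared. RefSeq (GRCh38.p14) gave windows for 8 of the 10 members, and AKR1B10 and AKR1B15 had none in the table. In the 250 bases upstream of the annotated starts, AKR1C1 (chr10:4963165-4963414, plus strand) and AKR1C2 (chr10:5003858-5004107, minus strand) aligned over 246 bases, of which 245 were identical (99.6%). Capitals mark the bases at the ends that were unaligned or different.
AKR1C1: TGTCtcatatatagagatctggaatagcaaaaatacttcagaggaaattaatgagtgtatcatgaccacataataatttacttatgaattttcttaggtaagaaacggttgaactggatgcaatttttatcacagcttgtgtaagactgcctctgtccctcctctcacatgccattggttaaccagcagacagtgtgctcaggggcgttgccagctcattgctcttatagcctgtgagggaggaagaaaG
AKR1C2: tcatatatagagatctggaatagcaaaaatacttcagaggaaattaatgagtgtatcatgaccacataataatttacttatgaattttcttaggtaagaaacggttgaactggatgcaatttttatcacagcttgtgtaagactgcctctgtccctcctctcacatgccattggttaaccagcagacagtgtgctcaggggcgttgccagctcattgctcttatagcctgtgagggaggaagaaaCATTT
AKR1C3 (chr10:5048531-5048780, plus strand) shared 76.8% of aligned bases with AKR1C1 and 77.2% with AKR1C2. Its capitals mark a match to the TATA box letters TATAAA, read on the opposite strand.
AKR1C3: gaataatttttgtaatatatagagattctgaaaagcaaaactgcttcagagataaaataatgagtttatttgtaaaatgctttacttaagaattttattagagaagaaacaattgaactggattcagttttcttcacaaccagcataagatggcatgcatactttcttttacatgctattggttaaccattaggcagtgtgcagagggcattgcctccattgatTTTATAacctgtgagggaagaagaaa
AKR7A2 (chr1:19312145-19312394, minus strand) is shown because it alone of the 8 members held the core of the antioxidant response element, the site of NRF2, in capitals.
AKR7A2: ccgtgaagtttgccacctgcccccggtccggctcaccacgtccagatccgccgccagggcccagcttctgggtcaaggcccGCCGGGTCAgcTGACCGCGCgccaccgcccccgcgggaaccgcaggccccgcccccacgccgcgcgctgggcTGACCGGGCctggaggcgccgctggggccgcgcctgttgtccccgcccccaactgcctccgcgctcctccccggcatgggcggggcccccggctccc

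The element was searched as TGACNNNGC on both strands, with N for any base, and 10.9% of 35116 upstream windows of this length held it. The AKR7A2 window held 3 matches that did not overlap. The AP-1 site, searched as TGANTCA, stands in 6.57% of windows and in none of the members' windows. TATAAA stands in 10.7% of windows and was found for AKR1C3, in 1 of its 2 windows, and for AKR1C4. These are matches of letters and say nothing on binding. No match says only that these letters are not in the window.

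Of the 17 member probe sets, 5 rose, 0 fell and 12 did not pass (limma; 7 higher and 0 lower at an unadjusted p under 0.05). Among all probe sets 22% passed, 11.5% as higher and 10.6% as lower. The share of members that rose was 29.4%, but 4 of the 5 belong to AKR1C2 and share a target, so they are not separate observations. The median change of the members was 0.04, against -0.02 over all probe sets. The groups did not overlap for 11 of the 17, and for 40.9% of all probe sets. With 1 probe set per gene, the brightest, 1 of 8 member genes rose and 0 fell (2 higher and 0 lower unadjusted), where 23.8% of 18244 genes passed, 9.81% as higher and 14% as lower. In bulk RNA, fewer cells of a type and less RNA per cell cannot be told apart.

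**Figure D1:**
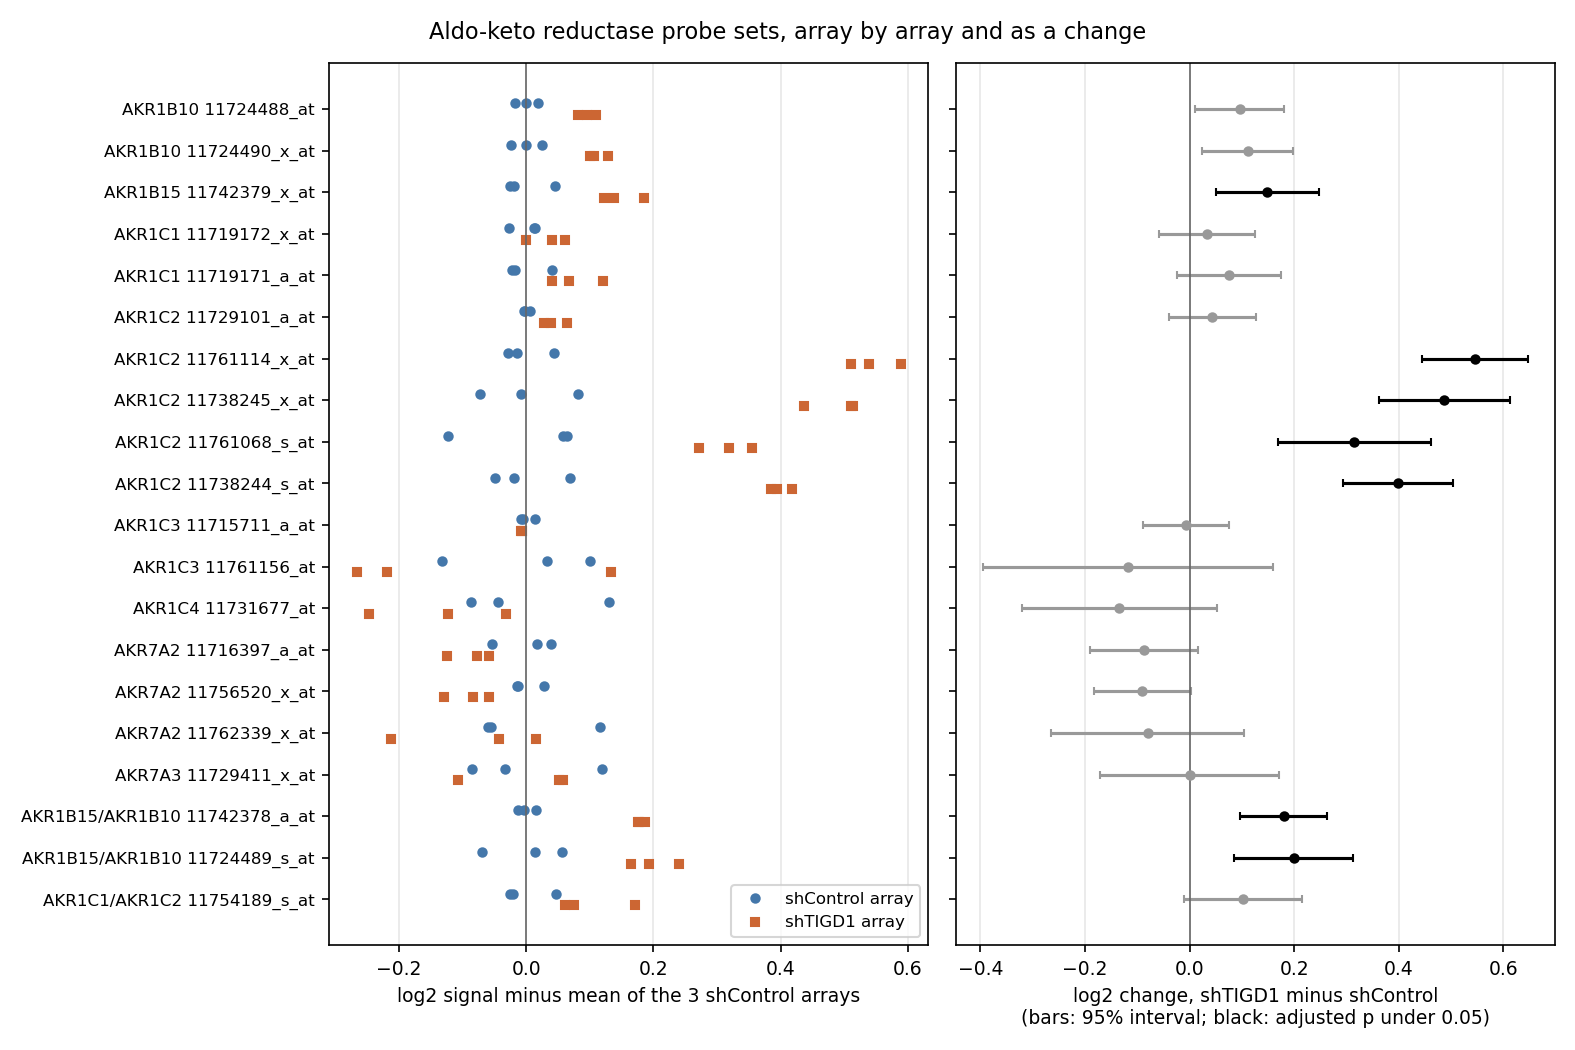
Left, the log2 signal of each array minus the mean of the 3 shControl arrays, for the 20 probe sets annotated to the family; right, the log2 change with its 95% interval. The 4 dimmer AKR1C2 probe sets stand apart with changes of 0.32 to 0.55, while the brightest AKR1C2 probe set moved by 0.04.

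AKR1C2 encodes a 3-alpha-hydroxysteroid dehydrogenase that inactivates dihydrotestosterone and binds bile acids. It had 5 probe sets, and 4 of them gave the largest changes of the family. The probe set 11761114_x_at read 10.72, 10.64 and 10.66 with the control hairpin and 11.26, 11.18 and 11.21 with the TIGD1 hairpin. Every shTIGD1 array was thus above every shControl array, by 0.55 on average (SE 0.04, 95% interval 0.45 to 0.65, limma adjusted p = 0.000733), or 46.0%.

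The probe sets 11738245_x_at and 11738244_s_at, designed on another RefSeq record than the brightest, moved in the same direction. The former read 8.21, 8.27 and 8.36 against 8.80, 8.79 and 8.72, a rise of 0.49 (SE 0.05, limma adjusted p = 0.00188). The latter read 7.89, 8.01 and 7.92 against 8.33, 8.32 and 8.35, a rise of 0.40 (SE 0.04, limma adjusted p = 0.00208). In neither did the groups overlap. The last of the 4, 11761068_s_at, read 8.05, 8.05 and 7.86 against 8.31, 8.34 and 8.26, with the lowest shControl array well below its group. It rose by 0.32 (SE 0.06, limma adjusted p = 0.0138), a call that ended without shTIGD1 replicate 2 (adjusted p = 0.0516).

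The brightest AKR1C2 probe set, 11729101_a_at, did not pass. It read 14.34, 14.35 and 14.34 with the control hairpin and 14.37, 14.41 and 14.38 with the TIGD1 hairpin, a difference of 0.04 (SE 0.04, 95% interval -0.04 to 0.13, limma adjusted p = 0.429). The groups did not overlap, but the gap is small against the SE, which limma draws towards that of all probe sets. The values lie close to the highest signal on any array, 14.80. With limma variance settings that let the variance depend on the signal and estimate it robustly, used together, this probe set passed (change 0.04, adjusted p = 0.0221).

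**Figure D2:**
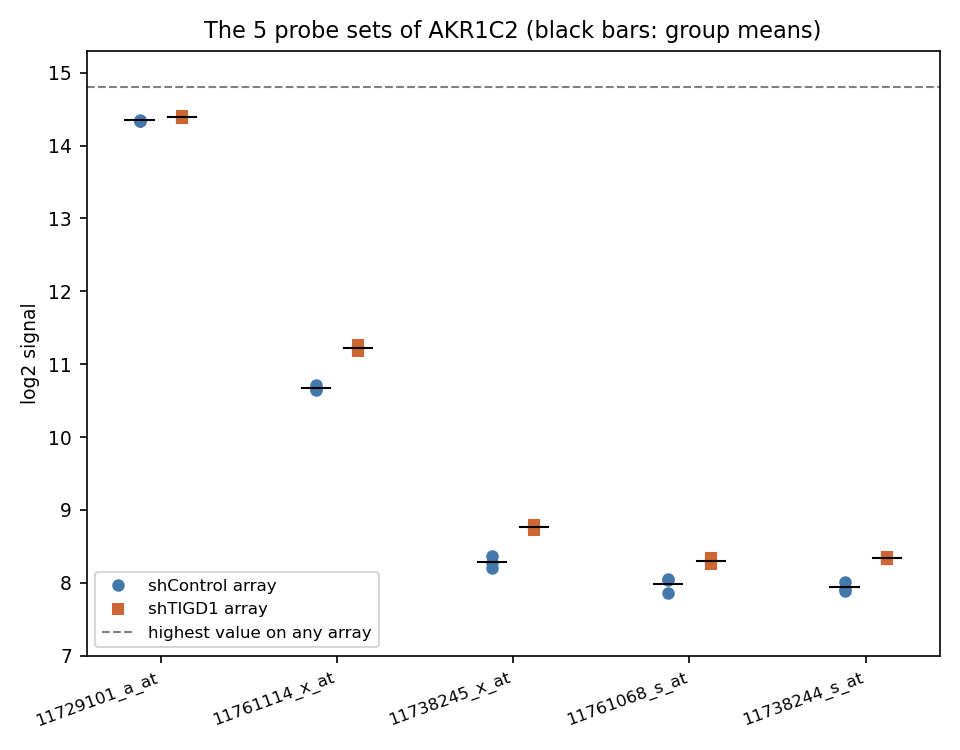
Log2 signal of the 5 AKR1C2 probe sets on each array, with group means as black bars; the dashed line is the highest value on any array, 14.80. The 4 probe sets to the right rose by 0.32 to 0.55 and the brightest, at 14.34 to 14.41, differed by 0.04.

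The signals of the AKR1C2 probe sets were compared by subtracting the brightest probe set of a gene from each other one, for all 27034 such pairs on the array. This test was added after the values had been seen. The difference passed for 3 of the 4, by 0.50 (SE 0.05, adjusted p = 0.00935) for 11761114_x_at, 0.44 (SE 0.06, adjusted p = 0.0130) for 11738245_x_at and 0.35 (SE 0.05, adjusted p = 0.0153) for 11738244_s_at. It missed for 11761068_s_at (0.27, SE 0.07, adjusted p = 0.0534; limma throughout). Over the whole array 8.65% of such differences passed, 5.75% as higher and 2.9% as lower. Only 1 of the 3 passed without shTIGD1 replicate 1 or without shTIGD1 replicate 3, and 0 passed as higher against the mean of the other AKR1C2 probe sets, which contains the others that rose (limma; 2 at an unadjusted p under 0.05). Set against that mean, the brightest probe set passed as lower (-0.39, limma adjusted p = 0.0135). The subtracted probe set lies near the top of the signal range, and whether its change was compressed there was not tested, so the differences compare these signals and not the amounts of transcript. Within AKR1B10, AKR1C1, AKR1C3 and AKR7A2, 0 of 5 such differences passed in either direction (largest -0.11, in AKR1C3, with 0 at an unadjusted p under 0.05 in limma).

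The letters that end a probe set name tell how unique its probes were meant to be. By design an _a_at set holds probes common to transcripts of a single gene. An _s_at set holds probes shared by several transcripts that can be of different genes, and an _x_at set some probes that also match other sequences. The ending does not ensure a single gene, since 11742378_a_at is annotated to both AKR1B10 and AKR1B15. All 4 AKR1C2 probe sets that rose end in _s_at or _x_at, and the brightest ends in _a_at. Signal from the copies AKR1C1, AKR1C3 and AKR1C4 in these probe sets was not tested.

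AKR1C1, a 20-alpha-hydroxysteroid dehydrogenase that inactivates progesterone, did not pass with either probe set. The brighter, 11719172_x_at, read 13.25, 13.21 and 13.25 against 13.23, 13.28 and 13.30, with overlapping groups and a difference of 0.03 (SE 0.04, 95% interval -0.06 to 0.13, limma adjusted p = 0.582). The other, 11719171_a_at, read 12.66, 12.65 and 12.71 against 12.74, 12.79 and 12.71 (difference 0.08, SE 0.04, adjusted p = 0.248). There the lowest shTIGD1 array lay at the level of the highest shControl array. The interval bounds of both probe sets correspond to changes between -3.94% and 12.9%.

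A probe set annotated to both AKR1C1 and AKR1C2, 11754189_s_at, read 13.50, 13.51 and 13.57 against 13.59, 13.70 and 13.60. It was 0.10 higher (SE 0.05, 95% interval -0.01 to 0.21, limma adjusted p = 0.175) and did not pass, although the groups did not overlap.

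AKR1C3, also known as 17-beta-hydroxysteroid dehydrogenase type 5 and prostaglandin F synthase, makes testosterone and prostaglandin F2-alpha. Its bright probe set 11715711_a_at read 14.11, 14.11 and 14.13 with the control hairpin and 14.11, 14.10 and 14.11 with the TIGD1 hairpin. The groups overlapped, with a difference of -0.01 (SE 0.03, 95% interval -0.09 to 0.08, limma adjusted p = 0.905). On the control scalings this probe set was higher, by 0.20 and 0.33. The dim AKR1C3 probe set 11761156_at, with means of 4.69 and 4.57 near background, differed by -0.12 (SE 0.12).

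AKR1C4, the chlordecone reductase of liver and an enzyme of bile acid synthesis, did not pass. Its probe set 11731677_at read 6.60, 6.77 and 6.55 against 6.61, 6.39 and 6.52. The groups overlapped and the difference was -0.13 (SE 0.08, 95% interval -0.32 to 0.05, limma adjusted p = 0.275). Levelled on hybridization controls the difference was 0.07, and on poly-A controls 0.20.

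Paralogs were also compared within each array, as the log2 signal of the brightest probe set of one minus that of the other, for 4 pairs. AKR1C2 minus AKR1C3 read 0.24, 0.24 and 0.21 with the control hairpin and 0.27, 0.30 and 0.28 with the TIGD1 hairpin. The groups did not overlap, and the changes of both genes differed by 0.05 (SE 0.01; exact permutation test, two-sided, p = 0.1, the smallest 3 arrays against 3 can give; adjusted p = 0.4 over the 4 pairs). AKR1C1 and AKR1C2 differed in change by -0.01 (SE 0.02, exact p = 1), and AKR1C1 and AKR1C3 by 0.04 (SE 0.02, exact p = 0.2). The pair of AKR7A2 and AKR7A3 is not read, because AKR7A3 lay near background. With the mean of all probe sets in place of the brightest, AKR1C1 minus AKR1C2 came to -0.30 and AKR1C2 minus AKR1C3 to 0.42. The AKR1C2 mean then holds the 4 probe sets that rose, in which signal from the other copies was not tested. The AKR1C3 mean holds its probe set near background.

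AKR1B10 reduces retinal and lipid aldehydes and is known for high levels in lung cancers of smokers. Both of its probe sets were higher in every shTIGD1 array, but neither passed. The probe set 11724488_at read 13.97, 13.95 and 13.93 against 14.03, 14.06 and 14.04, a difference of 0.10 (SE 0.04, 95% interval 0.01 to 0.18, limma adjusted p = 0.105). The probe set 11724490_x_at read 13.81, 13.83 and 13.86 against 13.93, 13.96 and 13.94, a difference of 0.11 (SE 0.04, 95% interval 0.02 to 0.20, limma adjusted p = 0.0734). Both passed when probe sets with a mean under 5 were left out (limma adjusted p = 0.0428 and 0.0279). They also passed with the trend and robust variance settings of limma used together (adjusted p = 0.000122 and 5.40e-05). The size of the difference was 0.10 and 0.11 in each of these fits.

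AKR1B15 is the neighbour and closest relative of AKR1B10. Its probe set 11742379_x_at read 13.03, 12.97 and 12.96 against 13.11, 13.13 and 13.17, with no overlap, and rose by 0.15 (SE 0.04, limma adjusted p = 0.0450). This call ended in all 6 fits that left out an array (adjusted p from 0.0568 to 0.132) and with a repeated quantile normalization (adjusted p = 0.0705). Its name ends in _x_at, so the signal cannot be assigned to AKR1B15 apart from AKR1B10.

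The probe sets annotated to both genes gave the clearer rise. The probe set 11742378_a_at read 13.37, 13.34 and 13.35 with the control hairpin and 13.54, 13.53 and 13.53 with the TIGD1 hairpin, a rise of 0.18 (SE 0.03, limma adjusted p = 0.0137), or 13.3%. It missed the threshold without shTIGD1 replicate 1 (adjusted p = 0.0534). The probe set 11724489_s_at read 12.81, 12.90 and 12.94 against 13.05, 13.12 and 13.08, a rise of 0.20 (SE 0.05, limma adjusted p = 0.0276). Its call held without shControl replicate 3 and ended in the other 5 such fits (adjusted p up to 0.0830). All 5 probe sets of this pair of genes thus had separate groups with the shTIGD1 arrays higher, by 0.10 to 0.20. Groups were separate, in either direction, for 40.9% of all probe sets. The transcripts of both genes were not compared, and some of these probe sets are annotated to both. The 5 are therefore read as a single observation, although the counts above enter AKR1B10 and AKR1B15 as separate genes. The member gene that rose in those counts was AKR1B15.

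AKR7A2 encodes the reductase of succinic semialdehyde and of the aflatoxin dialdehyde. Its probe sets were lower in the shTIGD1 arrays by similar amounts, and none passed. The probe set 11716397_a_at read 9.81, 9.79 and 9.72 against 9.69, 9.65 and 9.71 (difference -0.09, SE 0.04, 95% interval -0.19 to 0.02, limma adjusted p = 0.206). The probe set 11756520_x_at read 9.75, 9.70 and 9.70 against 9.63, 9.66 and 9.59 (difference -0.09, SE 0.04, adjusted p = 0.153). In both the groups did not overlap. The dimmer 11762339_x_at differed by -0.08 (SE 0.08) with overlapping groups. These differences turned to between 0.12 and 0.13 on hybridization controls and to between 0.24 and 0.25 on poly-A controls.

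AKR7A3, which acts on the same aflatoxin aldehyde, was measured by 11729411_x_at at 3.66 on average in each group, near background. The difference was 0.00 (SE 0.07, limma adjusted p = 0.998), and the level gives no ground to describe a change.

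The differences were also set beside the signal level. Among the 7 member probe sets with a mean of at least 12, 1 rose, and among the 6 with a mean of 7.5 to 11, 4 rose, all of AKR1C2. The AKR7A2 probe sets in that range differed by -0.09 and did not pass. The dimmest members lie in neither range, and of all 10 with a mean under 12 the same 4 rose. Among the members the link to signal level thus rests on AKR1C2. Over the whole array, 11.4% of 967 probe sets in the bright range rose, with a median absolute change of 0.06. In the middle range 20% of 15243 rose, with a median absolute change of 0.13. These ranges were set after the values had been seen. The part of the signal level in the difference between the AKR1C2 probe sets was not tested.

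**Figure D3:**
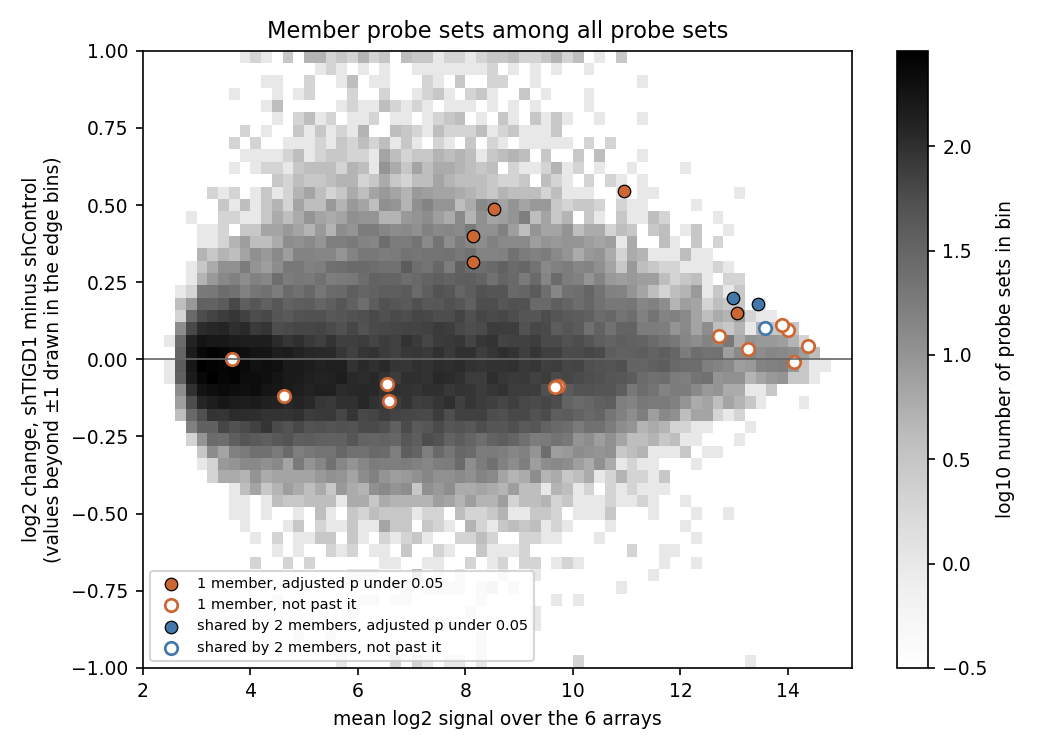
Log2 change against mean log2 signal for the member probe sets (circles) over all 49293 probe sets (grey, darker where more lie). The bright members crowd near the right edge, where the cloud narrows, with changes of -0.01 to 0.20, and the 4 AKR1C2 probe sets that rose lie between 8.14 and 10.95.

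Members were also set beside their chromosomal neighbours, the 5 nearest protein-coding genes on each side of each cluster, by the order of RefSeq genes. AKR1C8, which lies inside the AKR1C cluster and is not a listed member, was counted with them. It did not pass (change -0.07, means of 3.38 and 3.31 near background). Of 39 measured neighbours 5 rose and 6 fell, with a median change of -0.06, against 9.81% and 14% of all genes and a median of -0.04. The GTPase exchange factor gene NET1, beyond the AKR1C cluster, rose by 0.47 (SE 0.05, limma adjusted p = 0.00171). TMEM140, beyond the AKR1B cluster, rose by 0.42 (SE 0.07, adjusted p = 0.00767), and TMEM69, beside AKR1A1, by 0.34 (SE 0.05, adjusted p = 0.00561). Named outside the rule, after their values were seen, IPP (0.28) and CYREN (0.25) also rose, and TUBAL3 (-0.39), UBR4 (-0.21), MRTO4 (-0.18), CALD1 (-0.16), PITRM1 (-0.15) and EMC1 (-0.12) fell. The fall of TUBAL3 was between means of 5.21 and 4.82, the latter near background. TUBAL3 and PITRM1 flank the AKR1C cluster, and UBR4, MRTO4 and EMC1 lie before the AKR7A cluster. AKR1E2, a further aldo-keto reductase next to the AKR1C genes, read 7.54 ± 0.02 and 7.44 ± 0.05 (SD, n = 3 each; change -0.10, limma adjusted p = 0.104). In the wider superfamily, which holds the bile acid enzyme AKR1D1 and the potassium channel subunits KCNAB1, KCNAB2 and KCNAB3, 0 of 5 measured genes passed (limma; 0 higher and 1 lower unadjusted), with changes from -0.12 to 0.00. A dimmer KCNAB3 probe set, named after its value was seen, fell by 0.32 (limma adjusted p = 0.00955 over all probe sets).

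Among the regulators of the NRF2 pathway, the NRF2 gene NFE2L2 did not pass, with 10.83, 10.76 and 10.75 against 10.81, 10.80 and 10.79 (change 0.02, SE 0.04, limma adjusted p = 0.803). KEAP1 fell by 0.17 (SE 0.03, limma adjusted p = 0.0138), from 9.51, 9.49 and 9.45 to 9.33, 9.31 and 9.30, but was 0.038 and 0.16 higher on the hybridization and poly-A control scalings. The related factors NFE2L1 and NFE2L3 fell by 0.15 and 0.20 (adjusted p = 0.0255 and 0.0429), and likewise turned to 0.058 and 0.0060 on hybridization controls. The repressor BACH2, named after its value was seen, rose by 0.28 between means of 3.44 and 3.71 near background. The KEAP1 call ended without shTIGD1 replicate 3 (adjusted p = 0.0520). That of NFE2L1 held only without shControl replicate 2, and that of NFE2L3 only without shTIGD1 replicate 1, with adjusted p up to 0.0751 and 0.119 in the other 5 fits that left out an array. In all 1 of 10 measured regulators rose and 3 fell (median -0.09), where 9.81% of all genes rose and 14% fell.

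Targets of NRF2 outside the family moved in both directions, with 8 of 29 measured genes rising and 5 falling (median 0.01, beside 9.81% and 14% of all genes). IDH1, a cytosolic source of NADPH, rose by 0.44 (SE 0.03, limma adjusted p = 0.000799). UGDH, which makes UDP-glucuronate, rose by 0.38 (SE 0.03, adjusted p = 0.000824), and both genes rose with every probe set. HMOX1, the heme oxygenase, fell by 0.40 (SE 0.04, adjusted p = 0.00141), from 11.77, 11.81 and 11.76 to 11.39, 11.33 and 11.42, and all 3 of its probe sets fell. This list overlaps with those of other reductases and of aldehyde oxidation in a few genes.

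**Figure D4:**
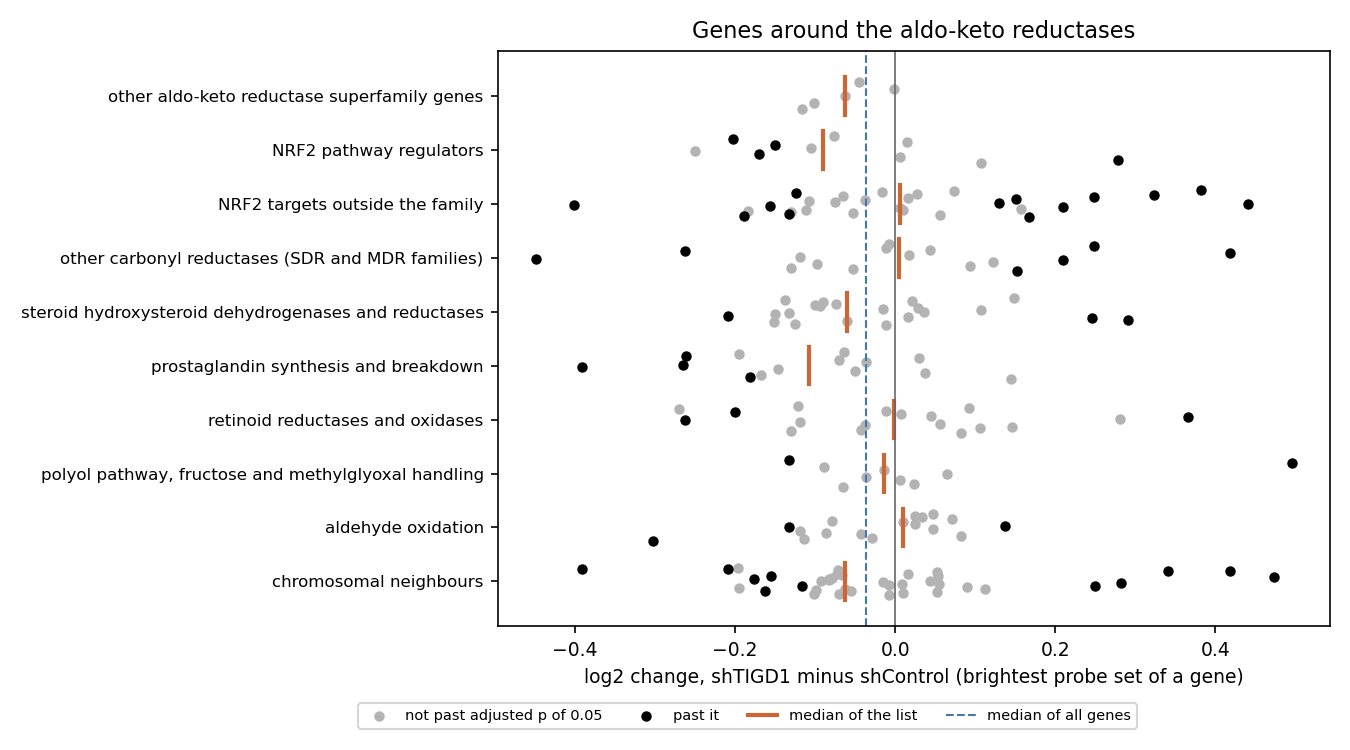
Log2 change of each measured gene in 10 lists around the family, by its brightest probe set; black points passed an adjusted p of 0.05, bars are list medians and the dashed line is the median of all genes (-0.04). The list of prostaglandin synthesis and breakdown has 4 falls and 0 rises, the other aldo-keto reductase superfamily genes have neither, and the other 8 lists have both.

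Carbonyl reductases of other families had 4 rises and 2 falls among 16 genes (median 0.00), against 9.81% and 14% among all genes. DHRS7 rose by 0.42 (SE 0.04, limma adjusted p = 0.00131) and PTGR1, which reduces alkenals, by 0.25 (SE 0.03, adjusted p = 0.00316). DHRS2 fell by 0.45 (SE 0.06, adjusted p = 0.00336). Named after their values were seen, DHRS11 (0.21) and ADH5 (0.15) rose and DHRS9 (-0.26) fell.

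Of 21 measured genes of steroid dehydrogenases and reductases, which share substrates with the AKR1C enzymes, 2 rose and 1 fell (median -0.06), where all genes had 9.81% and 14%. HSD17B11 rose by 0.29 (SE 0.05, limma adjusted p = 0.00723), HSD17B12 by 0.25 (SE 0.05, adjusted p = 0.0190), and HSD17B14 fell by 0.21 (SE 0.04, adjusted p = 0.0193). The HSD17B12 call ended without shControl replicate 1, shTIGD1 replicate 1 or shTIGD1 replicate 2 (adjusted p up to 0.0570). The HSD17B14 call ended without shControl replicate 2 or 3 or shTIGD1 replicate 1 or 2 (adjusted p up to 0.0597). Of the 3 HSD17B12 probe sets 2 rose, by 0.25 and 0.42. The remaining one, with means of 4.66 and 4.65 near background, differed by -0.0046.

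In prostaglandin synthesis and breakdown, 4 of 14 genes fell and 0 rose (limma; 0 higher unadjusted), with a median of -0.11, beside 14% lower and 9.81% higher among all genes. PTGES, the inducible prostaglandin E synthase, fell from 10.61, 10.58 and 10.54 to 10.20, 10.16 and 10.19 (change -0.39, SE 0.04, adjusted p = 0.00126), and all of its probe sets fell. PTGES2 fell by 0.27 (SE 0.04, adjusted p = 0.00486) and PTGS2, the inducible cyclooxygenase, by 0.26 (SE 0.03, adjusted p = 0.00352). Of the 3 PTGS2 probe sets 2 fell and the remaining one, which did not pass, differed by 0.11. HPGD, which breaks prostaglandins down and is named after its value was seen, fell by 0.18 (adjusted p = 0.0407). With hybridization control scaling 5 of the 14 rose and 1 fell, with a median of 0.10. With poly-A control scaling 6 rose and 0 fell, and the median was 0.22. Of all 18244 genes 8735 and 13954 rose on these scalings.

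Among 18 measured genes of retinoid handling 1 rose and 2 fell, against 9.81% and 14% of all genes. RDH10, which oxidises retinol to retinal, rose by 0.37 (SE 0.05, limma adjusted p = 0.00413), and RDH13 fell by 0.20 (SE 0.04, adjusted p = 0.0215). The RDH13 call ended without shControl replicate 1 or 2 or shTIGD1 replicate 1 or 2 (adjusted p up to 0.0691). The other fall was that of DHRS9. In the polyol, fructose and methylglyoxal list 1 of 9 rose and 1 fell. These were the myo-inositol transporter gene SLC5A3 (0.50, SE 0.07, adjusted p = 0.00438) and TKFC (-0.13, SE 0.03, adjusted p = 0.0361), whose call ended in all 6 fits that left out an array (adjusted p from 0.0699 to 0.0922). Among 17 genes of aldehyde oxidation, the reverse direction of the family's chemistry, ALDH3A2 rose by 0.14 (SE 0.03, adjusted p = 0.0316) and ALDH3A1 fell by 0.13 (SE 0.03, adjusted p = 0.0307). The ALDH3A1 call ended in all 6 such fits (adjusted p from 0.0631 to 0.0902). The ALDH3A2 call held only without shTIGD1 replicate 2 (adjusted p up to 0.0998) and ended with the repeated quantile normalization (adjusted p = 0.0677). The 3 ALDH3A2 probe sets differed by 0.14 to 0.29, and 2 of them passed as higher over all probe sets. ABAT, named after its value was seen, fell by 0.30 between means of 5.00 and 4.70.

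**Figure D5:**
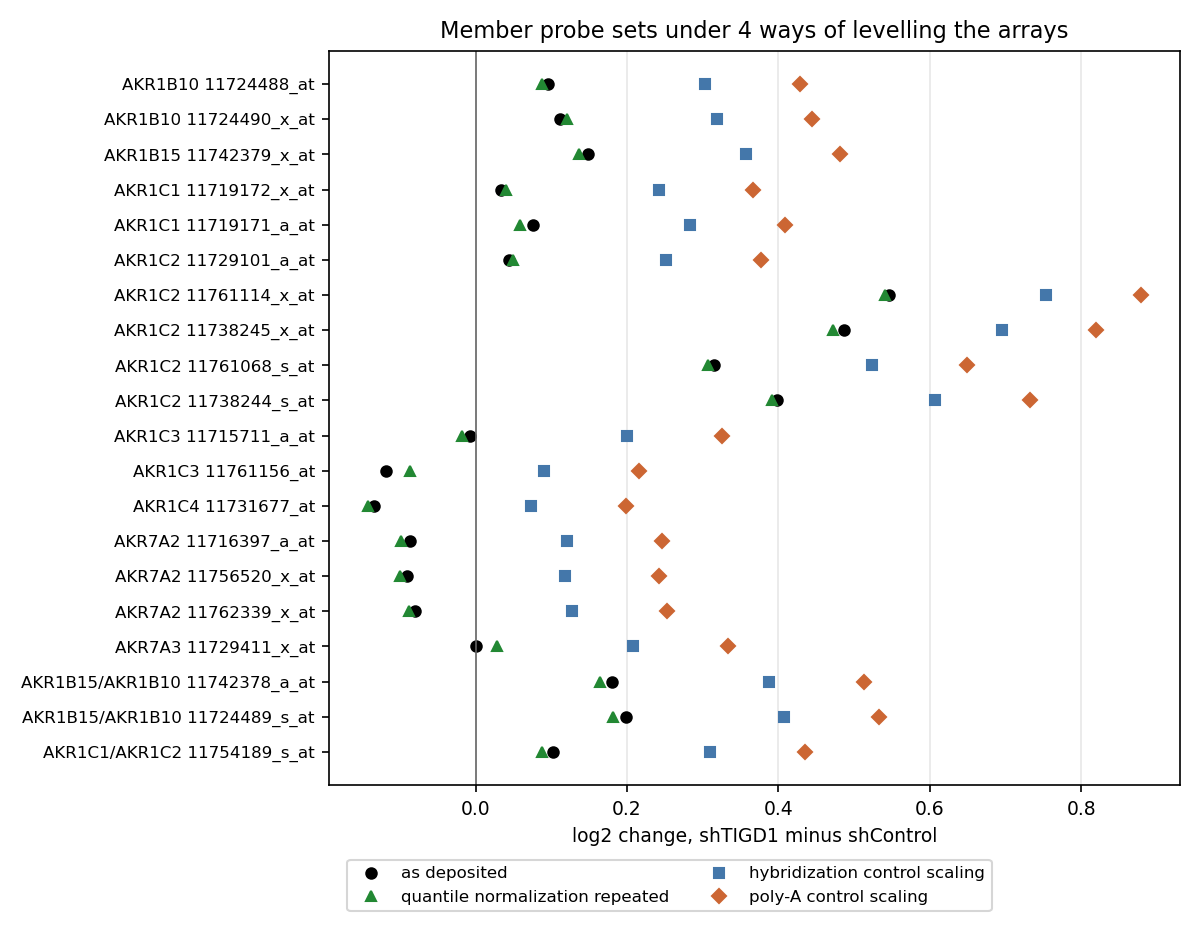
Log2 change of the 20 probe sets as deposited, after a repeated quantile normalization, and with arrays levelled on hybridization or poly-A control probes. The control scalings add the same amount to every probe set, 0.21 and 0.33, so the order stays and the signs of AKR1C3, AKR1C4 and AKR7A2 turn.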

How the data were processed

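The authors deposited a log2 signal for each probe set on each array. The submitters' processing notes name GCOS and RMA. Not given in the sources used here were versions and a genome build. The range of these numbers gave the log base, 2. RMA corrects background, makes array distributions alike and summarises probes, so a shift common to most genes is removed. Of 49395 probe sets 102 controls were left out. The platform annotation gave 1 symbol to 45278, several to 1333 and none to 2682.

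For probe sets, limma 3.58.1 in R 4.3.3 (lmFit, then eBayes) compared the 3 arrays of each group in a two-sided test, and p-values were adjusted after Benjamini and Hochberg over all 49293, with a threshold of 0.05. For gene lists, TIGD1, markers and counts of genes, each gene was represented by its brightest probe set over all arrays. The same fit was run on these 18244 genes, with p-values adjusted over them. Sequence windows were handled with Python 3.11.15 and Biopython 1.88. The members, gene lists and tests were chosen with earlier results of these data known. Named genes are all members, TIGD1, NFE2L2, KEAP1 and, per list, up to 3 past the threshold with the largest change, separate groups and a signal of at least 6. A mean under 5 is called near background. Alternatives were other scalings, filters, variance settings, probe set choices, the replicate number as a block and leaving out each array. Scaling on control probes replaces the deposited level by that of spiked transcripts.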

Additional observations from a re-analysis of the deposited data

How the results depend on the processing

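The deposited scale gave 5 member probe sets higher and 0 lower, 1 member gene higher, and 5648 probe sets (1789 genes) higher and 5219 (2551) lower. On hybridization controls 12 member probe sets, 6 member genes, 24423 probe sets and 8735 genes were higher, with 827 probe sets and 361 genes lower. On poly-A controls the numbers were 16, 8, 38178 and 13954 higher, with 239 and 119 lower. Single values that turned on hybridization controls, beside those of AKR1C4 and AKR7A2 in the report and AKR1C3 11761156_at (0.090), were AKR1C3 11715711_a_at (0.20), TIGD1 (0.15), KEAP1 (0.038), NFE2L1 (0.058), NFE2L3 (0.0060), RDH13 (0.0085), TKFC (0.075) and ALDH3A1 (0.075). On poly-A controls these turned to 0.33, 0.28, 0.16, 0.18, 0.13, 0.13, 0.20 and 0.20. On these AKR1C4 (0.20) and AKR7A2 (0.25, 0.24 and 0.25) were positive too, as were HSD17B14 (0.12), PTGES2 (0.067) and PTGS2 (0.072).

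Variance with trend and robust settings called 9 member probe sets higher and 1 lower (AKR7A2 11756520_x_at, -0.09) and 3 member genes higher, with 7442 probe sets and 2440 genes higher and 7135 probe sets lower in all. Leaving out dim probe sets gave 2 member genes higher among 2164 genes. The limma treat test against 1.2-fold left 1 member probe set, 0 member genes, 583 probe sets and 175 genes higher, and 173 and 87 lower. A repeated quantile normalization left 0 member genes among 1765 genes higher. The mean of all probe sets gave 3 among 2250, and paralog differences of -0.30, 0.12 and 0.42 for AKR1C1 minus AKR1C2, AKR1C1 minus AKR1C3 and AKR1C2 minus AKR1C3. The second brightest probe set gave 1216 genes lower, from fewer genes.

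Replicate numbers did not pair the arrays: same-numbered arrays had correlations of -0.01, -0.10 and -0.07 between their deviations from group means. With the replicate number as a block, 3716 probe sets and 1098 genes were higher, 2746 and 1293 lower, 0 member genes passed, and 0 of the AKR1C2 differences from its brightest probe set passed. These also came to 0 against the mean of the other AKR1C2 probe sets, which contains the others that rose.

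Without each array in turn, member probe sets higher numbered 3 to 4 and lower 0, and member genes higher 0 to 1. All probe sets numbered 3700 to 4778 higher and 2976 to 3850 lower, and all genes 1177 to 1474 and 1564 to 1912. AKR1C2 differences past the threshold numbered 1 to 3. The paralog differences were -0.03 to 0.00 for AKR1C1 minus AKR1C2, 0.03 to 0.06 for AKR1C1 minus AKR1C3, 0.04 to 0.06 for AKR1C2 minus AKR1C3 and -0.17 to -0.03 for AKR7A2 minus AKR7A3. The causes were not tested.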
